A study of Oryza sativa with 6 samples.

Results

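In the array of 1 Epi-df seedling sample, replicate 3, 29 probe sets stood far above their level in every other array of the series. They are all probe sets, of 57258 that are not controls, whose intensity in Epi-df replicate 3 was at least 3 times the highest of the other 5 arrays and at least 200. These 2 limits used the values of all 6 arrays, so the height of Epi-df replicate 3 over the others is described below and is not tested. The platform annotation pairs 15 of the 29 with 1 gene, of which 8 carry a gene name and 7 a locus number alone. The other 14 have no gene in the tables used here. Of the 8 named genes, 6 belong to iron uptake and its control: NAS1, NAS2, NAAT1, Nramp1, IRT2 and IRO3. The remaining named genes, RBBI3.3 (a Bowman-Birk type trypsin inhibitor) and Cht2 (a chitinase), do not. The name of iron deficiency genes therefore rests on 6 of 29 probe sets.

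The series compared wild type rice of the japonica variety with Epi-df, known as a dwarf line with an epigenetic allele of the Polycomb group gene FIE1. Both groups were seedlings 3 weeks old, raised in artificial soil after soaking of the seeds, with no treatment named in the labels. Each group had 3 biological replicates, each measured as total RNA on 1 Affymetrix rice genome array. The labels do not say which organs or how many seedlings each RNA held. The p-values below set differences against the variation between these samples, with variances moderated across probe sets, and apply to these samples alone.

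Grasses take up iron as a complex with phytosiderophores, small chelators made from methionine by way of S-adenosylmethionine and nicotianamine. Nicotianamine synthases (NAS) and nicotianamine aminotransferase (NAAT) catalyse the committed steps, and yellow stripe-like (YSL) transporters carry the complexes. Rice also takes up ferrous iron through IRT transporters. Many of these genes are known to be induced when iron is scarce, under the control of bHLH transcription factors, while vacuolar iron transporters (VIT) serve storage.

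All 6 arrays were alike in overall level, with a median intensity of 108.1 to 114.5. The actin signal at the 3' end over that at the 5' end was 9.20 in Epi-df replicate 3, against 9.83 to 10.7 in the wild type and 7.72 and 13.8 in the other Epi-df arrays. The same pair of limits, applied to each other array in turn, found 24 probe sets for wild type replicate 1 (0.0419% of all), 3 for wild type replicate 3 (0.00524%), 4 for Epi-df replicate 1 (0.00699%) and 0 for wild type replicate 2 and Epi-df replicate 2. The 29 of Epi-df replicate 3 were 0.0506% of all. A set of this size in 1 array was therefore met in both groups.

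**Figure D1:**
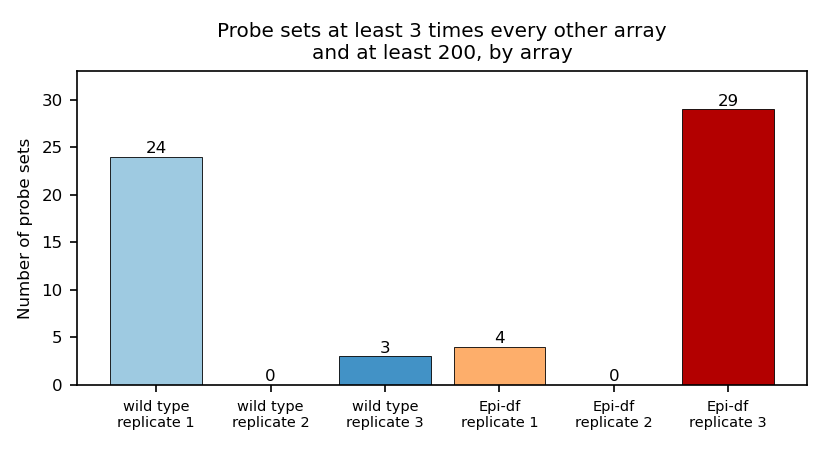
Number of probe sets (vertical axis) that met the limits of 3 times every other array and an intensity of 200, for each of the 6 arrays (bars). Epi-df replicate 3 had 29, wild type replicate 1 had 24 and the other arrays had 0 to 4.

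In phytosiderophore synthesis, 3 of the 5 genes measured were in the set. NAS1 had an intensity of 48.9, 40.2 and 31.5 in wild type replicates 1, 2 and 3, of 40.6 and 39.2 in Epi-df replicates 1 and 2, and of 1069 in Epi-df replicate 3. This was 21.9 times the highest other array, the largest ratio of the set. The 5 other values of NAS1 lay under 80.5, the level of the filter on low values used for the tests below, so the ratio is taken over a dim signal. NAS2 stood at 67.2, 62.4 and 64.7 in the wild type and at 65.4, 65.3 and 688.1 in Epi-df replicates 1, 2 and 3, a ratio of 10.2. Its 5 lower values were nearly level, the highest being 1.08 times the lowest, but they too lay under 80.5, so this ratio is also taken over a dim signal. NAS1 and NAS2 are of the same family and neighbours in the gene order of the RefSeq table, and how far their probe sets share signal was not tested.

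NAAT1, which acts after the synthases, had intensities of 185.7, 262.7 and 142.7 in the wild type and of 180.3, 235.5 and 1411 in Epi-df, a ratio of 5.37 to the highest other array. The third synthase gene, NAS3, known in rice leaves to be lower under iron deficiency, went the other way. It stood at 1851, 1004 and 2597 in the wild type and at 1857, 1067 and 698.5 in Epi-df, with Epi-df replicate 3 the lowest of the 6. SAMS2, a gene for S-adenosylmethionine synthetase, lay within the range of the other arrays, at 5562 in Epi-df replicate 3 against 4008 to 6398.

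Among 14 measured transporter genes of the list, 2 were in the set. Nramp1, a divalent metal transporter gene, had intensities of 160.5, 339.9 and 199.4 in the wild type and of 185.3, 270.5 and 2687 in Epi-df, so that Epi-df replicate 3 was 7.91 times the next array, wild type replicate 2. IRT2, a ferrous iron transporter gene, was dim everywhere else, at 43.6, 60.5 and 48.1 in the wild type and 48.1 and 44.7 in Epi-df replicates 1 and 2, and stood at 219.8 in Epi-df replicate 3. Both limits come close to IRT2: its intensity is the lowest of the 29 and its ratio was 3.64.

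The other measured transporter genes of the list, not all of which serve iron uptake, did not share this height. IRT1, of the same family as IRT2, was at 81.9 in Epi-df replicate 3 and at 66.1 to 80.0 in the other arrays. YSL15, which carries iron with phytosiderophores, was at 120.4, inside the range of 104.5 to 126.0 of the others. YSL16 was also inside the range, at 2904 against 2052 to 3099, and YSL18 was highest by a small step, at 93.4 against 75.7 to 84.2. YSL9 and Nramp5, a metal transporter gene, were lowest in Epi-df replicate 3, at 144.6 against 213.9 to 304.8 and at 554.8 against 703 to 896.2. Of the 6 measured ZIP genes, for zinc and related metals, ZIP8 was highest there, at 218.4 against 135.8 to 177.3, ZIP7 was lowest, at 148.7 against 161.4 to 189.1, and the other 4 lay within the range of the others.

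The regulator IRO3, a bHLH transcription factor gene whose record in the gene table also lists OsIRO2 as a synonym, had intensities of 245.0, 623.8 and 233.7 in the wild type and of 521.4, 623 and 2144 in Epi-df. Epi-df replicate 3 was 3.44 times the next array, and wild type replicate 2 was level with Epi-df replicate 2. IDEF1, a factor that binds iron deficiency elements, was at 526.6 in Epi-df replicate 3, just under the 530.1 to 647.1 of the other arrays. The 4 measured genes of methionine salvage, which recycles the methionine spent on phytosiderophores, were less far apart. ARD1 was highest in Epi-df replicate 3, by 1.36 times the next array. MTK1 and ARD2 were near ties with the next array, at 2342 against 2340 and 2851 against 2806. A dimmer probe set of ARD1 was within the range, at 142.0 against 113.3 to 145.7. A dimmer one of ARD2 was lowest there, at 51.1 against 60.5 to 98.3. IDI2 was within the range, at 2525 against 2394 to 2740. The VIT genes went the other way. VIT2 had 730.7, 172.6 and 680.1 in the wild type and 1379, 430.4 and 196.5 in Epi-df, so that wild type replicate 2 and Epi-df replicate 3 were the lowest arrays. VIT1 was lowest in Epi-df replicate 3, at 832.3, but all 3 Epi-df arrays (951.5 and 1083 in the other ones) lay under the wild type range of 1382 to 1631.

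Over all 27 measured genes of the iron lists, of 62 symbols listed, Epi-df replicate 3 was the highest array for 12, among them the 6 of the set, and the lowest for 6. Among the 21 that are not in the set it was highest for 6, lowest for 6 (a near tie for IDEF1) and within the range for 9. The 6 highest include near ties for MTK1 and ARD2, and IRT1 at 1.02 times the next array. Over all probe sets it was highest for 19.7% and lowest for 14.2%. The median ratio of Epi-df replicate 3 to the median of the other arrays was 1.10 over the 27 genes and 1.08 over the 21, and 1.02 over all probe sets.

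**Figure D2:**
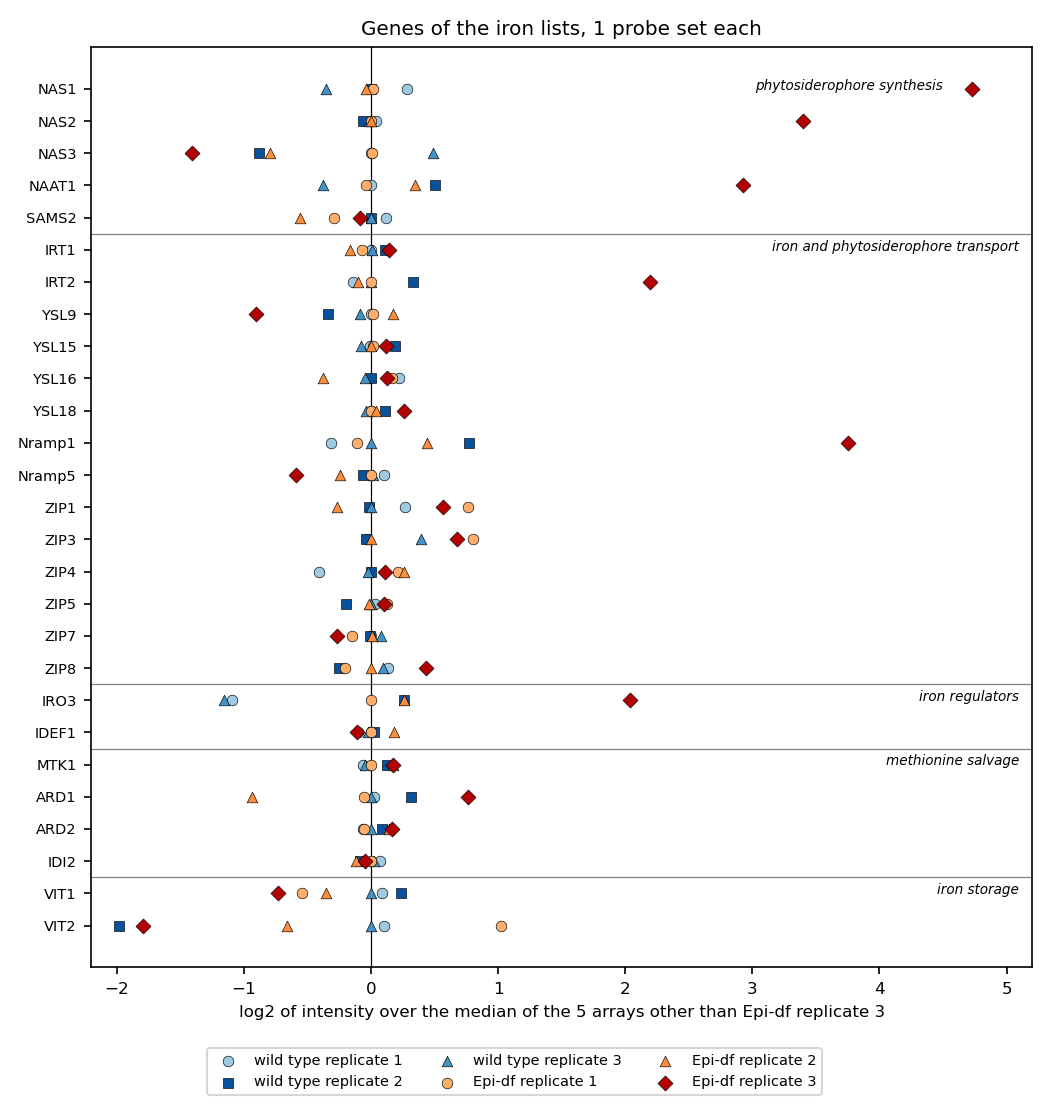
Log2 of the intensity in each array over the median of the 5 arrays other than Epi-df replicate 3 (horizontal axis), for the 27 measured iron genes (rows, grouped by list). NAS1, NAS2, NAAT1, Nramp1, IRT2 and IRO3 stand out to the right in Epi-df replicate 3, NAS3, YSL9 and VIT2 lie to the left, and wild type replicate 2 is also far to the left for VIT2.

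Genes known by locus number alone and unnamed probe sets made up 21 of the 29. An unnamed probe set had intensities of 9.68, 64.3 and 7.36 in the wild type and of 49.3, 50.5 and 1299 in Epi-df, a ratio of 20.2. Another unnamed probe set had 115.3, 1872 and 75.9 in the wild type and 1268, 1563 and 14815 in Epi-df, a ratio of 7.91. Its 5 lower arrays fell into separate levels: wild type replicates 1 and 3 were low, while wild type replicate 2 and Epi-df replicates 1 and 2 were more than 10 times higher. LOC4324944 showed the same order, with 75.7, 199.2 and 75.2 in the wild type and 152.1, 154.6 and 1789 in Epi-df. Another probe set of LOC4324944, which missed the ratio limit, had 2460, 5057 and 2837 in the wild type and 4727, 5188 and 8738 in Epi-df. Its top array was likewise Epi-df replicate 3, and wild type replicates 1 and 3 were at the bottom.

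LOC4325750 had 53.6, 128.0 and 54.5 in the wild type and 76.4, 77.5 and 1076 in Epi-df, a ratio of 8.40. LOC4351985 had 62.3, 65.0 and 55.9 in the wild type and 76.5, 84.4 and 583.3 in Epi-df, a ratio of 6.91. LOC4335374 had 177.6, 414.1 and 188.9 in the wild type and 211.4, 389.7 and 1505 in Epi-df, a ratio of 3.63. Wild type replicate 2 was the highest array after Epi-df replicate 3 for LOC4325750 and LOC4335374, as for LOC4324944. For LOC4351985 it was Epi-df replicate 2, followed by Epi-df replicate 1. Among the unnamed probe sets, 1 had 83.4, 350.2 and 75.7 in the wild type and 131.0, 199.5 and 2240 in Epi-df, and another 180.5, 971.4 and 161.1 in the wild type and 385.4, 445.4 and 4218 in Epi-df. Both repeat the order in which wild type replicate 2 comes next and wild type replicates 1 and 3 are lowest. In an unnamed probe set with 726.2, 1100 and 657.9 in the wild type and 935.4, 900.3 and 5723 in Epi-df, that order held with smaller steps.

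The other unnamed probe sets among the 20 largest ratios were of several orders. A ratio of 5.23 belonged to one with 442.7, 513.8 and 336.7 in the wild type and 371.8, 420.3 and 2688 in Epi-df, and a ratio of 5.16 to one with 152.0, 170.2 and 152.6 in the wild type and 175.0, 214.9 and 1108 in Epi-df. In the first the wild type arrays spread around the other Epi-df arrays, and in the second all Epi-df arrays lay above the wild type. The ratio was 4.40 for 17.5, 59.7 and 18.0 in the wild type and 41.3, 36.5 and 262.7 in Epi-df, and 3.77 for 48.4, 125.6 and 46.9 in the wild type and 73.1, 72.6 and 473.8 in Epi-df, both with wild type replicate 2 next. It was 4.04 for 61.9, 63.9 and 57.1 in the wild type and 63.4, 72.0 and 290.9 in Epi-df, where the 5 lower arrays were close together. It was 3.80 for 97.9, 46.6 and 51.1 in the wild type and 124.4, 62.0 and 472.6 in Epi-df, where Epi-df replicate 1 and wild type replicate 1 came next.

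Other probe sets of the set were highest, after Epi-df replicate 3, in Epi-df replicate 1. LOC4343492 had 443.2, 316.6 and 367.2 in the wild type and 849.4, 373.7 and 3620 in Epi-df, and another probe set paired with it read no more than 8.06 in any array. RBBI3.3 had 730.9, 246.4 and 178.8 in the wild type and 768.2, 643 and 2501 in Epi-df, on a probe set of the _s_at type, which can match several transcripts. Cht2, whose product cleaves chitin of fungal walls, had 418.1, 327.8 and 243.7 in the wild type and 518.1, 331.8 and 1571 in Epi-df, the smallest ratio of the set at 3.03. A second probe set of Cht2, of the _s_at type, had 453.6, 295.7 and 263.0 in the wild type and 542.7, 326.1 and 1486 in Epi-df, which is the same order at a ratio of 2.74. LOC4350822 had 215.2, 223.4 and 305.0 in the wild type and 382.3, 346.3 and 1596 in Epi-df, so that all 3 Epi-df arrays lay above the wild type. LOC4337600 had 75.1, 64.4 and 62.0 in the wild type and 154.6, 81.7 and 493.9 in Epi-df, again with no overlap of the groups. Epi-df replicate 1 came next in 7 of the 29 probe sets, against 21.5% of all probe sets with at least 200 in Epi-df replicate 3. The 2 shares are close, so the 7 are described here and not read as a group of their own. Of the 7, 2 have no gene in the annotation, and the genes of the other 5 are not in the iron lists.

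**Figure D3:**
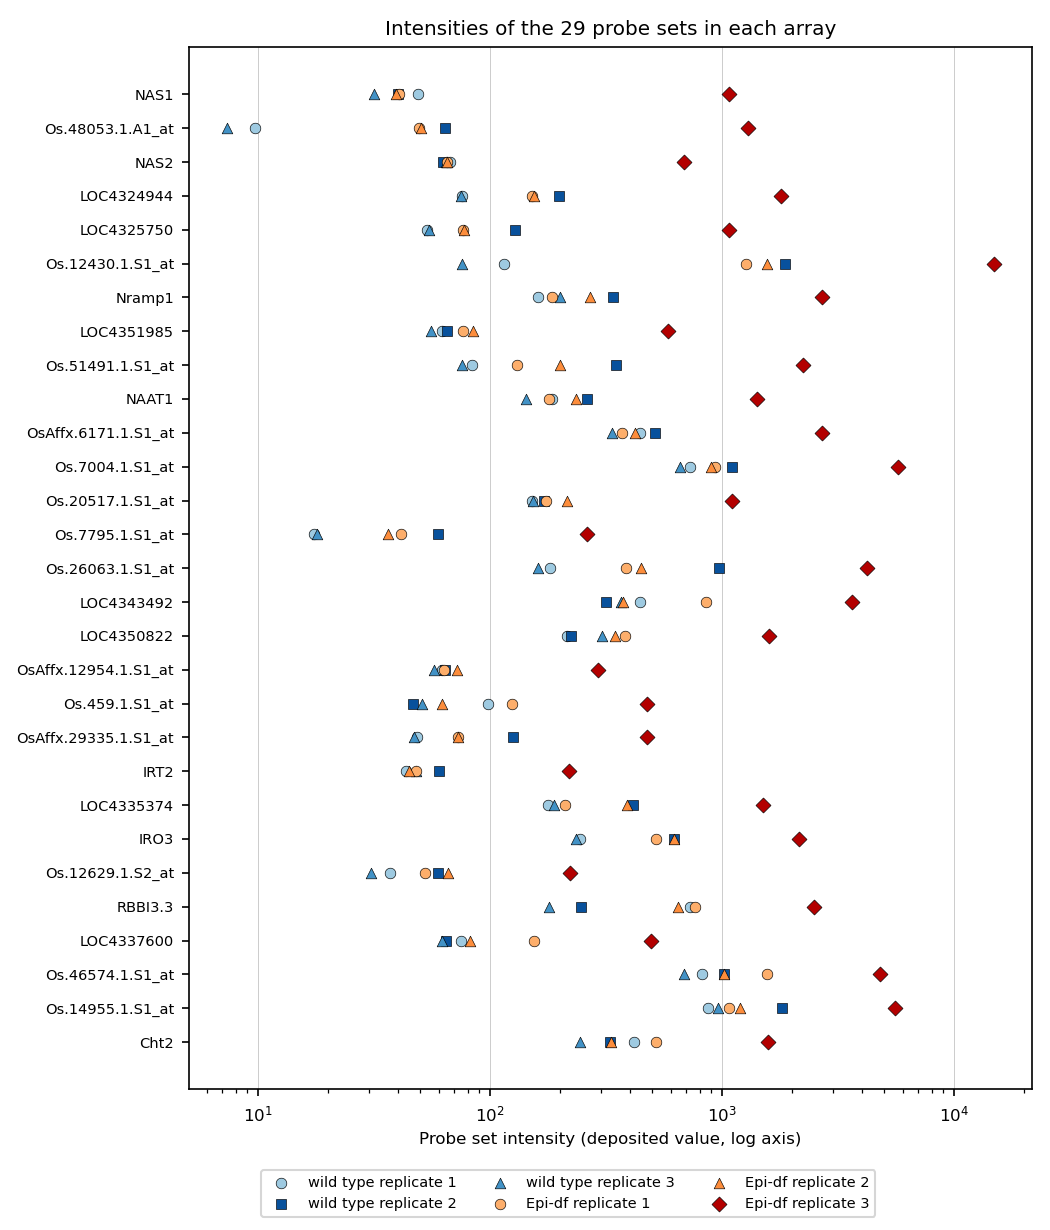
Intensity in each of the 6 arrays (log axis) for the 29 probe sets (rows, from the largest to the smallest ratio of Epi-df replicate 3 to the next array). The red diamonds of Epi-df replicate 3 lie at least 3 times to the right of every other point in each row, and wild type replicate 2 (dark squares) is often the next.

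Across the set the ratio of Epi-df replicate 3 to the next array had a median of 4.34, was at least 5 for 13 probe sets and at least 10 for 3. Just inside the ratio limit were Cht2 at 3.03 and unnamed probe sets at 3.05 and 3.07 (5544 and 4800 in Epi-df replicate 3), and just outside it LOC4334129 at 2.999, LOC4351197 at 2.99 and LOC4341249 at 2.97. Just inside the level limit were IRT2 at 219.8 and unnamed probe sets at 221.3 and 262.7, and just outside it PM1 (LOC4338635) at 165.5 and unnamed probe sets at 195.5 and 155.1. The values run on across both limits without a gap. In 8 of the 29 the highest other array was under 100.

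The limits set a ceiling on the other 5 arrays and no order among them, and that order differed between the genes of the set. Wild type replicate 2 was the highest of the 5 for 16 of the 29, while it was the highest for 12.4% of all probe sets with an intensity of at least 200 in Epi-df replicate 3. Epi-df replicate 1 was highest for 7 (21.5%), Epi-df replicate 2 for 4 (30.2%), wild type replicate 1 for 2 (19.8%) and wild type replicate 3 for 0 (16%). The pair with wild type replicate 1 next is NAS1 and NAS2. Within the wild type, replicate 2 was above both other arrays for 21 of the 29 (33.7% of those probe sets). It was at least 1.5 times both for 14 of the 29, against 0.265% of the same probe sets. These 14 include Nramp1 at 1.89 times the mean of wild type replicates 1 and 3, IRO3 at 2.61 times and the unnamed probe set of 14815 in Epi-df replicate 3 at 19.6 times. Wild type replicates 1 and 3 were both below wild type replicate 2 and Epi-df replicates 1 and 2 for 17 of the 29 (13.8% of the same probe sets). The 29 were dimmer and more spread in these 5 arrays than the probe sets beside them, so the shares are not like for like. The highest of the 5 had a median of 262.7 in the set and 773.0 in those probe sets. The highest over the lowest of the 5 had a median of 2.28 and 1.27. Genes of a set chosen together are not independent of each other, and no test was made of these counts.

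**Figure D4:**
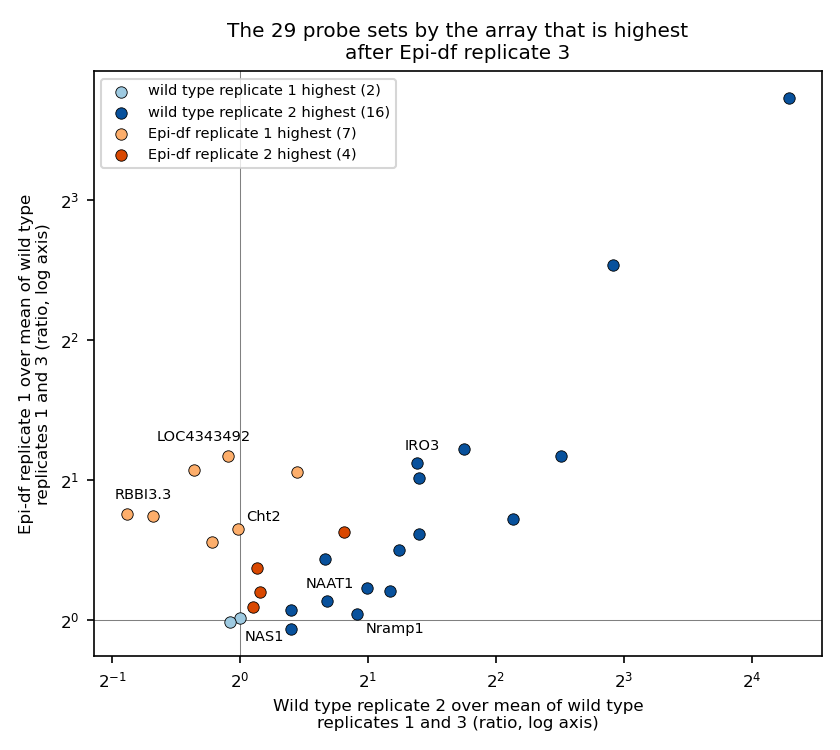
Wild type replicate 2 (horizontal) and Epi-df replicate 1 (vertical), each over the mean of wild type replicates 1 and 3, on log axes, for the 29 probe sets; both ratios share this mean. The 16 probe sets in which wild type replicate 2 came next (dark blue) lie at 1.32 to 19.6 on the horizontal axis, and the 7 in which Epi-df replicate 1 came next (light orange) at 0.542 to 1.36. The colours were set by the same intensities, so dark blue points lie above 1 on the horizontal axis by definition.

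The contrast of Epi-df with wild type was fitted to log2(intensity + 16) with limma over the whole table, and a probe set was called at a 2-fold change or more with a Benjamini-Hochberg adjusted p below 0.05. With all 6 arrays, 24 of the 29 passed the filter on low values and 0 were called, while 209 of 34355 tested probe sets (0.608%) were, 0.175% higher and 0.434% lower in Epi-df. Unadjusted p was under 0.05 for 6 of the 24, beside 14.4% of all tested. This fit holds the array that chose the set, and 6 of the 24, NAS2 among them, passed the filter only through that array, so these counts are given with nothing read from them. As a description, the log2 change was 1.18 for Nramp1, with a standard error of 0.88, 0.99 for NAAT1, with 0.68, and 1.05 for NAS2, with 0.76. NAS1 did not pass the filter.

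Without Epi-df replicate 3, the same fit compared Epi-df replicates 1 and 2 with the wild type. Of the 29, 18 passed the filter, 0 were called and 3 had an unadjusted p under 0.05 (limma), while 205 of 34355 (0.597%) were called over the whole table, 0.186% higher and 0.41% lower, and 16.6% had such a p. The log2 change of Nramp1 was 0.01 ± 0.30 (standard error) here (limma adjusted p = 0.992) and that of NAAT1 0.10 ± 0.24 (limma adjusted p = 0.896). The 3 with an unadjusted p under 0.05 were LOC4350822 at 0.54 ± 0.16 (limma adjusted p = 0.161), LOC4337600 at 0.64 ± 0.22 (limma adjusted p = 0.216) and the unnamed probe set of 4800 in Epi-df replicate 3 at 0.59 ± 0.22 (limma adjusted p = 0.250). The log2 change of all 29, taken with no filter, had a median of 0.31, from -0.10 to 2.33. It was above 0 for 26, against 54.6% of the probe sets with at least 200 in Epi-df replicate 3. The 26 include values near 0, such as NAS1 at 0.003 and NAS2 and Nramp1 at 0.01. For NAS1, Nramp1 and others of the 26, the mean intensity of Epi-df replicates 1 and 2 was below that of the wild type. The 29 are not independent of each other nor like for like with those probe sets, so nothing is read from this count. The largest log2 change belonged to the unnamed probe set of 14815 in Epi-df replicate 3, 2.33 ± 1.18 (limma adjusted p = 0.395), whose wild type arrays spread from 75.9 to 1872. Epi-df replicates 1 and 2 were both above all wild type arrays for 4 of the 29 (20.5% of the same probe sets) and both below for 0 (16.8%).

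Calls in this smaller fit turned on single arrays. Without wild type replicate 2, 3 of the 18 members tested were called, beside 87 of 34355 probe sets over the whole table. All 3 were higher in Epi-df replicates 1 and 2. They were the same unnamed probe set by 3.70 ± 0.21 (limma adjusted p = 0.00558), IRO3 by 1.20 ± 0.14 (limma adjusted p = 0.0438) and an unnamed one of 4218 in Epi-df replicate 3 by 1.21 ± 0.14 (limma adjusted p = 0.0445). With wild type replicate 1 left out, 1 of the 19 members tested was called, beside 91 of 34355 over the whole table. It was RBBI3.3, by 1.67 ± 0.18 (limma adjusted p = 0.0467). With Epi-df replicate 2 left out, a lone Epi-df array stood against the wild type, and the log2 change of LOC4337600 was 1.04. In the fit of all 6 arrays the count over the whole table was 108 and 114 of 34355 without wild type replicates 1 and 2. No probe set of the 29 was called there when any single array was left out, and again nothing is read from this.

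**Figure D5:**
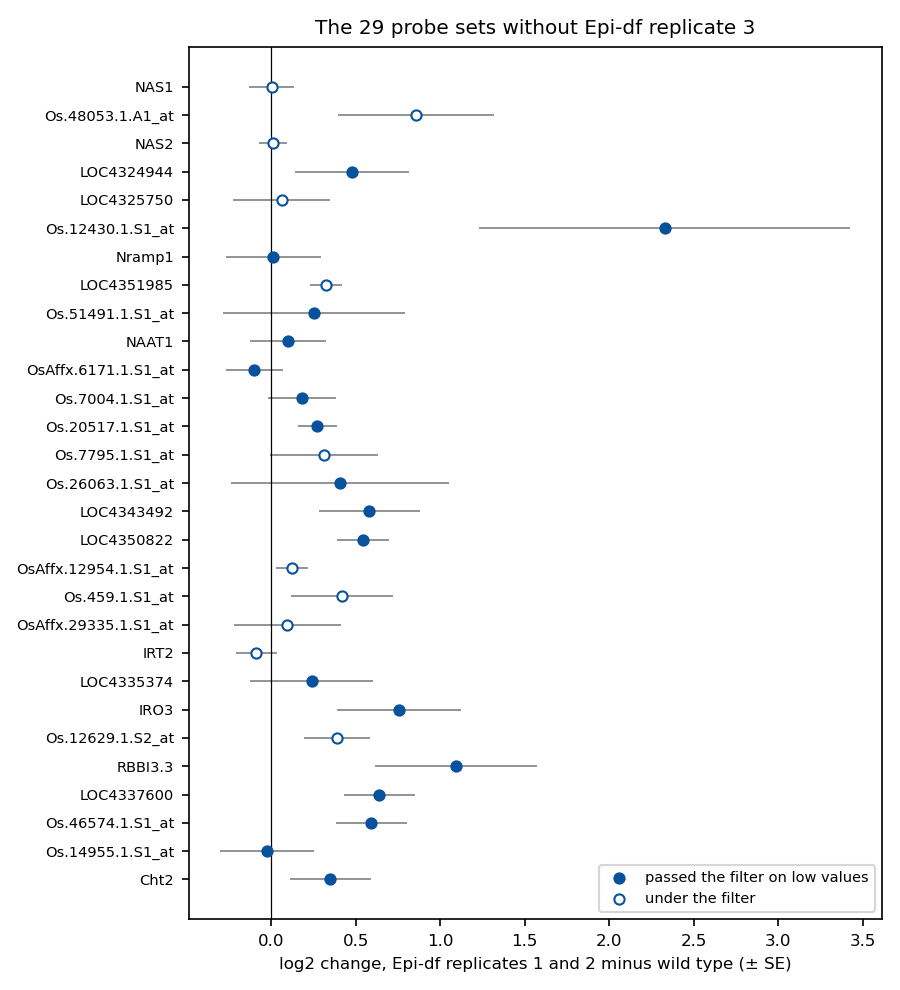
Log2 change of Epi-df replicates 1 and 2 against the wild type with its standard error (horizontal axis) for the 29 probe sets, from the fit with no filter on low values. Filled points passed the filter and open points did not; most points lie between 0 and 1, and none was called.

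Of the 27 iron list genes, 24 were tested with all arrays and 22 without Epi-df replicate 3. In either fit 0 were called (limma), beside 0.608% and 0.597% of all tested probe sets. Unadjusted p was under 0.05 for 4 in each, beside 14.4% and 16.6%. The list holds the 6 genes of the set, and NAS2 and YSL18 passed the filter only through Epi-df replicate 3. Nothing is therefore read from the counts or the median with all arrays. The median log2 change of the 27 genes, with no filter, was 0.08 with all arrays and 0.003 without Epi-df replicate 3, against 0.01 and 0.006 over all tested probe sets. VIT1 came nearest, with a log2 change of -0.64 ± 0.11 with all arrays (limma adjusted p = 0.0417, under the 2-fold limit) and -0.55 ± 0.11 in the smaller fit (limma adjusted p = 0.0645). In the smaller fit IRO3 was called with wild type replicate 2 left out, as given above. With Epi-df replicate 1 left out, the log2 change of ARD1 was -1.03, a value that sets Epi-df replicate 2 alone against the wild type.

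Markers of root, leaf, seed and anther were read beside the set, since several iron uptake genes are known from roots, and a change in the share of a tissue and a change in RNA per cell cannot be told apart in such samples. Of 12 root marker symbols 6 were measured, and their summed intensity was 849.6 to 1237 in the wild type, 1118 and 1080 in Epi-df replicates 1 and 2 and 914.6 in Epi-df replicate 3. The silicon transporter gene LSI1 stood at 473.2 in Epi-df replicate 3, above the 368.9 to 446.0 of the wild type and below the 533.0 and 661.7 of the other Epi-df arrays, LSI2 at 20.7 to 26.3 in all 6, and PIP2-5, an aquaporin gene, at 51.4 there against 53.7 to 438.1. The top of the wild type range rests on PIP2-5 in wild type replicate 3. Without PIP2-5, a choice made after seeing the data, the root sum was 775.5 to 799.1 in the wild type, 851.5 and 1026 in Epi-df replicates 1 and 2 and 863.2 in Epi-df replicate 3. All 3 Epi-df arrays then lay above the wild type, but among the single markers this held for LSI1 alone. PT2 went the other way in Epi-df replicates 1 and 2, at 192.9 and 217.2 against 230.1 to 280.6 in the wild type. In Epi-df replicate 3 PT2 was at 254.5, inside the wild type range. AMT1-2 and PT6 were dim, at 43.1 to 72.0 in all 6 arrays, and their groups overlapped. The summed leaf markers, 6 of 10 symbols, were 79100 to 82715 in the wild type, 87116 and 95759 in Epi-df replicates 1 and 2 and 81399 in Epi-df replicate 3. Single leaf markers went different ways. RCA, for Rubisco activase, and RBCS, for the small subunit of Rubisco, were lowest in Epi-df replicate 3, at 8776 against 10793 to 13057 and at 23271 against 24112 to 24975. For RBCS this held for the brightest probe set alone. Its other probe sets lay within the range, at 5134 against 4592 to 6162, 5887 against 5532 to 6536 and 72.2 against 64.4 to 95.3. The 2 genes under the symbol LHCP, for light-harvesting proteins, were above every wild type array there and below the other Epi-df arrays, at 17779.5 against 15234 to 15847 and at 8245 against 5390 to 6635 in the wild type. GS2 and GLO1 lay within the range of the other arrays, but a dimmer probe set of GLO1 was highest in Epi-df replicate 3, at 1181 against 1029 to 1096. The seed and anther markers, 4 of 8 symbols, summed to 811.9 to 933.2 in the wild type, 760.1 and 867.3 in Epi-df replicates 1 and 2 and 817 in Epi-df replicate 3. The part of tissue shares in the height of the 29 was not tested.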

How the data were processed

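The probe set intensities were deposited by the authors on a linear scale and come from MAS5, which the submitters' processing notes name without a version. Its scaling target is not given in the sources used here. Of 57381 rows, 123 are controls. MAS5 treats each array alone. Dim probe sets carry a large relative error, and precision is limited by the 6 arrays. No further scaling was made. The selection limits were applied to these intensities. The members and the gene lists were chosen with earlier results of these data known.

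Groups were taken from the sample titles. Tests used limma 3.58.1 in R 4.3.3 on log2(intensity + 16), by lmFit and trended eBayes (two-sided, no replicate block), on probe sets at or above the 40th percentile of the mean log2 value. The fold understates the change of dim probe sets. The fits were tested on simulated data with known changes.

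Names came from the platform annotation, which gives 1 gene for 22436 probe sets, several for 95 and none for 34727, and from synonyms in the RefSeq gene table (assembly ASM3414082v1). An unnamed probe set is identified by its intensity in Epi-df replicate 3. Of several probe sets of a listed gene, the one with the highest mean was used. The text names the anchors NAS1, NAS2, NAAT1 and Nramp1, every member with a gene name, the 20 members of the largest ratio, those next to the limits and the measured iron genes. LOC4335374, LOC4337600 and the second probe sets of LOC4324944, LOC4343492 and Cht2 were chosen after their values were seen. TOM1, TOM2 and FDH were left out because the table's entries under these symbols could not be tied to iron or methionine genes. Alternatives covered the pseudocount, filter, scaling, spread model, replicate block, probe set type, each array left out and the selection limits.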

Additional observations from a re-analysis of the deposited data

How the results depend on the processing

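The set had 69 probe sets at a ratio limit of 2 and 18 at 4, and 25 to 33 under the other level limits, scalings and the exclusion of _s_at and _x_at probe sets. Quantile scaling kept all 29 and median scaling 27 of them. The count of called probe sets with all arrays was 319 with the replicate block and 108 to 250 with 1 array left out. For the fit lacking Epi-df replicate 3 the count was 532 with the replicate block, 133 with the filter at the 60th percentile and 87 to 455 when 1 more array was left out. None of the 29 was called under any of 15 alternatives to the fit of all 6 arrays, some of which left out 1 array. Nothing is read from this, since the set was chosen on the height of Epi-df replicate 3 over the other Epi-df arrays too. In the smaller fit 0 to 3 were called with 1 wild type array left out. Of the iron list genes 0 to 1 were called then, and 1, VIT2, with the replicate block (log2 change 1.07, limma adjusted p = 0.000984). Without Epi-df replicate 3 the log2 changes of NAAT1 and Nramp1, 0.10 and 0.01, turned to -0.0935 and -0.0617 with the replicate block, and lay between -0.0935 and 0.31 and between -0.24 and 0.30 when 1 more array was left out. The cause was not tested. Same-numbered arrays did not deviate together in every pair (correlations of 0.129, 0.327 and -0.064), so the numbers were not taken as pairs.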
